A study of Mus musculus with 4 samples.

Results

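The 10 genes described here encode parts of the transforming growth factor beta (TGF-beta) pathway: the ligand genes Tgfb1, Tgfb2 and Inhba, the receptor gene Tgfbr1, the signal transducers Smad2, Smad3 and Smad4, the inhibitory Smad7, and the corepressors Ski and Skil. They were followed in mDCT cells, which derive from the mouse distal convoluted tubule and are immortalised. The cells had been transfected with a plasmid for the human mineralocorticoid receptor (MR) carrying a FLAG tag; MR is the nuclear receptor through which aldosterone acts. At 48 h from transfection they were given the MR antagonist spironolactone or ethanol, and 2 h after that the hormone or ethanol for 3 h. There was 1 Affymetrix array for each of 4 treatments: ethanol, aldosterone at 1 nM, aldosterone at 100 nM, and aldosterone at 100 nM preceded by 5 µM spironolactone. The last is called the spironolactone library below. All groups carried the human receptor, and no group received spironolactone alone or lacked the receptor plasmid. The promoter that drives the receptor is not given in the sources used here.

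A probe set was taken for a member when the platform annotation gave it that gene symbol alone, which found 25 probe sets for 10 genes, of 34945 probe sets and 18193 genes named in that way. The brightest probe set of a gene, by mean log2 signal, leads, and its others are given beside it. Of the 25, 20 reached the filter used throughout, a mean log2 signal no lower than that of the median probe set of the array (a signal of 55.9). All 10 leading probe sets passed it, 7 of them also above the 75th percentile, a signal of 420. Just inside the filter was a Tgfb2 probe set with a geometric mean of 62.6, and just outside it a Smad3 probe set at 39.2. The genes were selected on measured differences between these libraries, those of Ski and Inhba among them, and the leading probe sets were chosen by mean signal, so the values below are a description. With 1 library in each group there is no spread between replicates and no test. Every difference is between 2 arrays, whose number sets the precision.

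In this pathway a secreted ligand joins a type II and a type I receptor, and the type I receptor phosphorylates Smad2 and Smad3. These bind Smad4 and enter the nucleus, where they activate or repress genes. Smad7 blocks the receptor and has it degraded. Ski and Skil (also called SnoN) sit on the Smad complex and recruit histone deacetylases, which silences its targets. In the kidney the pathway is best known for its part in fibrosis and in the loss of epithelial character.

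The median signal of the arrays lay between 58.9 and 61.7 and the upper quartile between 419 and 426. Of 9 distal convoluted tubule markers measured, 5 passed the filter, among them the kinase gene Wnk1, while Slc12a3, the defining sodium chloride cotransporter, lay between 3.93 and 17.2 and did not. Of 7 epithelial markers measured 2 passed, the kidney transcription factor gene Pax8 and Epcam, and the epithelial cadherin gene Cdh1 did not. Of 8 fibroblast markers 0 passed, as did 0 of 8 collecting duct markers, 1 of 6 endothelial and 1 of 6 leukocyte markers. Of 7 proximal tubule markers 5 passed, Aqp1 among them.

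The 250 bases before the start site are shown for Ski and Tgfb2. The leading probe set of Ski ranged most widely of the 10 leading ones. All 4 Tgfb2 probe sets were higher than in ethanol in both libraries that received 100 nM aldosterone, with or without spironolactone. The sequences are from the RefSeq promoters of GRCm38.p6, 5′ to 3′ on the gene's own strand, at chr4:155222536-155222785 (minus) for Ski and chr1:186705990-186706239 (minus) for Tgfb2. Capitals mark the Smad box CAGAC or its reverse complement and the steroid receptor half-site AGAACA or its reverse complement.
Ski: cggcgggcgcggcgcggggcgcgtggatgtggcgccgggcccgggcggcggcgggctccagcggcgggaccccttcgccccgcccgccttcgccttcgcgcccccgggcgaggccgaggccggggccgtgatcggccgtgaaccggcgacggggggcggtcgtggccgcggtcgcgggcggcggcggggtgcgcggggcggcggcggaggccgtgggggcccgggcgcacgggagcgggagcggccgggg
Tgfb2: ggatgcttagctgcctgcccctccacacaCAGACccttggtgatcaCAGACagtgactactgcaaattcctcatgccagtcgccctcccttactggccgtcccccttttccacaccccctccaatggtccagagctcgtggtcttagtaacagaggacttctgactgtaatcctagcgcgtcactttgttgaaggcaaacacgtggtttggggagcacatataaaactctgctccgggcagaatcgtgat
The Ski window is 87.6% G and C, where the median of all promoters is 52.4%, and it holds neither motif. The Tgfb2 window is 53.6% G and C and holds 2 Smad boxes, which start 221 and 204 bases before the start site. On both strands CAGAC occurs in 42.2% of 32851 promoters of this length and AGAACA in 16.1%. The table held windows for 6 of the 10 genes, 7 windows in all. AGAACA occurred in 0 of them and CAGAC in the Tgfb2 window and in 1 of 2 Tgfbr1 windows. These are matches of letters and say nothing of binding.

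Among the ligands, Tgfb1, the form most often tied to renal fibrosis, was dim. Its leading probe set had signals of 82.4 in ethanol, 90.9 at 1 nM, 75.9 at 100 nM and 98.0 with spironolactone. Its second probe set had 90.2, 65.2, 65.7 and 65.8 in the same order. The first was highest with spironolactone and the second in ethanol, so they share no order of the treatments. For 100 nM aldosterone against ethanol they differed by -0.12 and -0.46 on the log2 scale, both below 0.

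Tgfb2, a ligand that needs a co-receptor to bind well, had 4 probe sets at or above the filter. The leading one had signals of 209 in ethanol, 268 with 1 nM, 213 with 100 nM and 252 with spironolactone. The next, almost as bright on average (geometric means of 234.2 and 233.8), had 176, 209, 261 and 312, lowest in ethanol and highest with spironolactone. The third had 217, 192, 238 and 262, and the dimmest 62.6, 38.9, 83.3 and 75.8. All 4 were higher with spironolactone plus aldosterone than in ethanol, by 0.27, 0.82, 0.27 and 0.28 on the log2 scale. They were also higher with 100 nM aldosterone alone than in ethanol, by 0.03, 0.57, 0.13 and 0.41. With 1 nM aldosterone they parted, at 0.35 and 0.24 for the brighter pair and -0.18 and -0.68 for the others. Both comparisons with ethanol share that library. In a count made after these values were seen, 884 genes had at least 4 probe sets at or above the filter. The cut was the lowest Tgfb2 value in each comparison, which Tgfb2 meets by definition, so the count is a description. Tgfb2, with 4, has the fewest probe sets that the count allows. Genes with more have more readings that must all reach the cut, so the count favours Tgfb2. For spironolactone against ethanol 2 genes had every such probe set at or above it, Tgfb2 and the transcription factor gene Zfhx3. In that comparison 73 genes had all of them above 0. By the same rule 32 genes met the cut for 100 nM aldosterone against ethanol and 805 for 1 nM.

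Inhba encodes the beta A subunit of activin and of inhibin A. Its signals were 460 in ethanol, 477 with 1 nM, 412 with 100 nM and 544 with spironolactone. The library with 100 nM aldosterone was the lowest and the one with added spironolactone the highest, a log2 difference of 0.40 between them. Against ethanol they stood at -0.16 and 0.24. Its other probe set lay below 12 in every library, so no second reading was at hand.

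**Figure D1:**
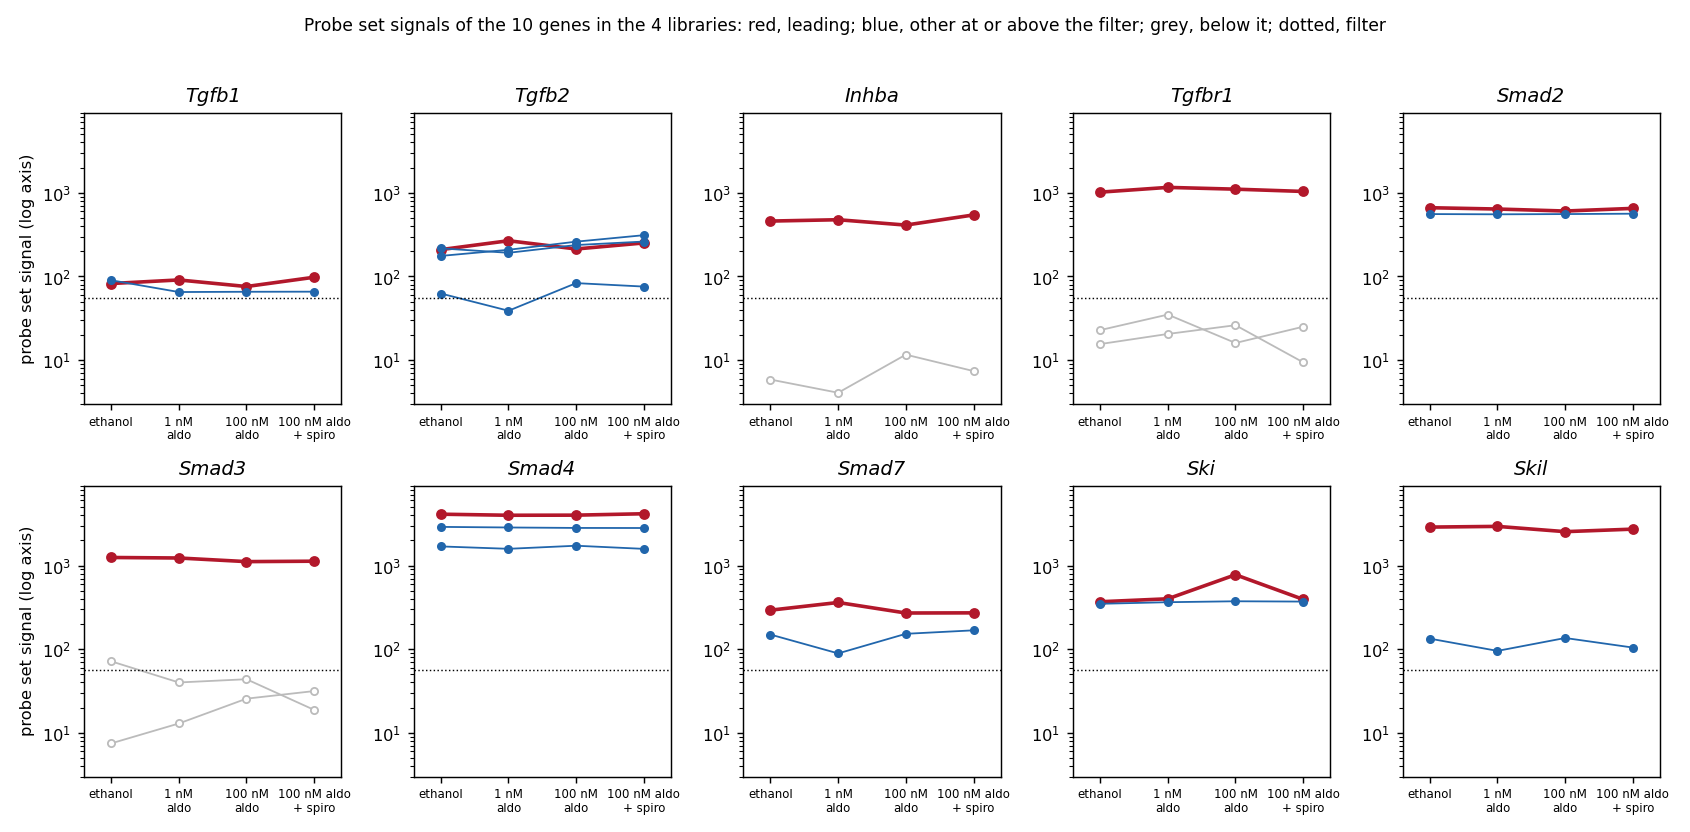
Signals of every probe set of the 10 genes (log axis) in the 4 libraries, 1 point per library, with the leading probe set in red, others at or above the filter in blue, those below it in grey, and the filter signal as a dotted line. The leading Ski probe set peaks at 776 with 100 nM aldosterone while the second stays between 349 and 374, and the Smad4 lines are nearly flat.

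Tgfbr1, the type I receptor that phosphorylates Smad2 and Smad3, had signals of 1019 in ethanol, 1162 with 1 nM, 1106 with 100 nM and 1039 with spironolactone. Both libraries with aldosterone alone lay above ethanol and above the spironolactone library, by 0.19 for 1 nM and 0.12 for 100 nM against ethanol. Over the 4 libraries the signal ranged over 0.19 on the log2 scale, and 39.5% of the 6936 genes above the 75th percentile ranged more widely. Its 2 other probe sets stayed below the filter in all libraries.

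By leading probe sets the Smads that carry the signal differed least of the 10 genes. Smad4, the shared partner, had signals of 4111, 3992, 4004 and 4161 in ethanol, 1 nM, 100 nM and spironolactone, a range of 0.06 on the log2 scale. Of the genes above the 75th percentile, 92.6% ranged more widely. The other Smad4 probe sets ranged over 0.04 and 0.12, so all 3 readings of this gene were close to level across the treatments. Smad2, a substrate of the activated receptor, had 664, 640, 606 and 652, lowest with 100 nM, and its second probe set 557, 554, 557 and 563. The gap of 0.13 between ethanol and 100 nM in the first is thus not seen in the second, where it was 0.00. Smad3, the other substrate and the one that binds the Smad box itself, had 1248, 1231, 1114 and 1127. The libraries with 100 nM aldosterone, with or without spironolactone, were the lower ones, by 0.16 and 0.15 against ethanol, with no second probe set at or above the filter.

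Smad7, the inhibitory Smad and itself a target of the pathway, gave opposite readings at the lower dose. The leading probe set had signals of 293 in ethanol, 362 with 1 nM, 271 with 100 nM and 272 with spironolactone, highest with 1 nM. The second had 150, 89.0, 153 and 168, lowest with 1 nM. For 1 nM against ethanol they stood at 0.31 and -0.75, and for 100 nM against 1 nM at -0.42 and 0.78. The name of the second probe set ends in x, which the array maker uses for probes that may match other transcripts, and its part in the gap was not tested. For 100 nM against ethanol the 2 readings were close to level, at -0.11 and 0.03.

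Ski, which represses Smad-driven transcription, held the largest difference among the leading probe sets. The leading one had signals of 369 in ethanol, 400 with 1 nM, 776 with 100 nM and 394 with spironolactone. The 100 nM library stood alone, 2.10-fold above ethanol (a log2 difference of 1.07), 1.94-fold above 1 nM and 1.97-fold above the library with spironolactone, and the other three lay within 0.12 of each other on the log2 scale. The second had 349, 365, 374 and 371 and ranged over 0.10. It put 100 nM aldosterone 0.10 above ethanol and 0.01 above spironolactone, so the difference rests on 1 of 2 probe sets. The gap between these readings for 100 nM against ethanol was 0.97. Of 5218 genes with 2 probe sets at or above the filter, 110 (2.11%) had a gap as large, where the median gap was 0.16. Which probe set reads the Ski transcript better was not tested.

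Skil, the close relative of Ski and a target of the pathway, showed no such peak. Its leading probe set had 2882 in ethanol, 2938 with 1 nM, 2542 with 100 nM and 2725 with spironolactone, lowest with 100 nM (-0.18 against ethanol). Its second, far dimmer, had 134, 95.4, 136 and 105, lowest with 1 nM. For 100 nM against 1 nM they stood at -0.21 and 0.51, again with opposite sign.

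**Figure D2:**
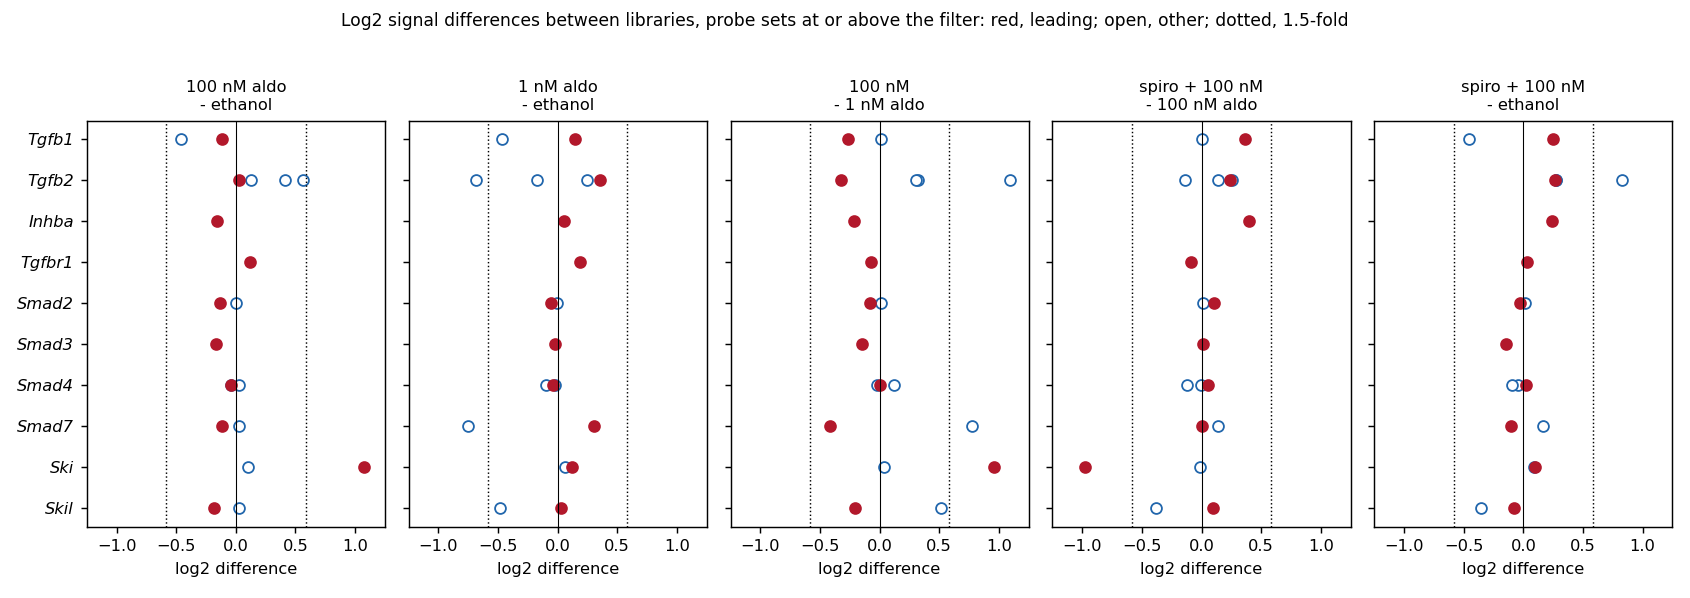
Log2 signal differences for the 5 comparisons (1 panel each), with 1 row per gene, the leading probe set as a filled red point, other probe sets at or above the filter as open points, and 1.5-fold as dotted lines. Ski alone among leading probe sets lies past a dotted line, at 1.07, 0.96 and -0.98, and the second Ski probe set lies near 0 in the same panels.

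Set against ethanol, the library with 100 nM aldosterone shows the higher dose after 3 h. Of the 10 genes, 1 (Ski) was higher by at least 1.5-fold, where 2.39% of 11057 entered genes were, and 0 were lower, where 1.72% were. Of genes above the 75th percentile, 0.231% were higher by that much, and 4 of 6936 were higher by at least 2-fold. Ski was 1 of these by its leading probe set, while its second stood at 0.10. Differences of Ski were among those on which the 10 genes were selected, so its place is a description. By sign, 3 of the genes were higher and 7 lower, and their median was -0.12 against -0.0046 for all entered genes. Over their 20 probe sets at or above the filter, 10 were higher and 10 lower, with a median of 0.01, and 1 was higher by at least 1.5-fold, against 2.77% of all such probe sets. The lower median thus holds for the leading probe sets and not for all of them.

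Set against ethanol, the library with 1 nM aldosterone shows the lower dose. By leading probe sets 0 of the 10 genes were past 1.5-fold, where 2.61% of entered genes were higher and 2.07% lower. The largest were Tgfb2 at 0.35 and Smad7 at 0.31. Over the 20 probe sets 2 were lower by at least 1.5-fold, the dimmest of Tgfb2, whose signal with 1 nM lay under the filter, and the second of Smad7, against 2.93% of all probe sets at or above the filter. The median of the genes was 0.08 by leading probe sets and -0.03 with the median over each gene's probe sets, so its direction also turned.

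Between the doses, 100 nM against 1 nM, Ski was again the only gene past 1.5-fold, at 0.96; 2.04% of entered genes were higher and 1.96% lower by that much. By sign 8 of the genes were lower with 100 nM, and the median was -0.18 against 0.0047 for all genes. With the median over probe sets it was -0.02. Over the 20 probe sets 3 were higher by at least 1.5-fold (1 each of Ski, Smad7 and Tgfb2, that of Tgfb2 again the dimmest), against 2.49% of all. The second probe set lay on the same side of 0 as the first in 1 of the 7 genes that have one, against 55.0% of the 5218 genes with 2 probe sets at or above the filter. In the other comparisons it did so in 5 of 7 for 100 nM against ethanol (52.0% of all), 4 for 1 nM against ethanol (54.7%), 5 for spironolactone against 100 nM alone (54.4%) and 3 for spironolactone against ethanol (54.9%).

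Set against 100 nM aldosterone alone, the spironolactone library shows what differs when the antagonist is added first. Ski was lower with spironolactone, at -0.98, and was 1 of 10 genes past 1.5-fold, where 2.51% of entered genes were lower and 1.83% higher. Inhba at 0.40 and Tgfb1 at 0.37 were the highest, and 8 of the 10 lay above 0, with a median of 0.08 against -0.0027 for all. The 100 nM library serves here and in the comparison with ethanol, so Ski, high in that library, is set apart in both. Against ethanol, the spironolactone library had 0 of the 10 genes past 1.5-fold, where 2.17% of entered genes were higher and 2.03% lower. Ski stood at 0.09 there by either probe set. Over the 20 probe sets 1 was lower by at least 1.5-fold against 100 nM alone (of Ski; 2.96% of all) and 1 higher against ethanol (of Tgfb2; 2.62% of all).

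For scale, each of the 50 differences of leading probe sets was set beside the central 95% of entered genes of the same signal class. Outside it were 4: the 3 of Ski that involve the 100 nM library, and Inhba between spironolactone and 100 nM aldosterone, where the range ran from -0.30 to 0.31. Differences of both genes were among those used in the selection, so their places are a description. A second scale is the agreement of probe sets of 1 gene. Of 66 genes with a second probe set whose leading one was past 1.5-fold for 100 nM against ethanol, the second lay on the same side of 0 in 31 (47.0%) and was also past 1.5-fold on that side in 6 (9.09%). Ski, at 1.07 and 0.10, is among the first and not among the latter.

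**Figure D3:**
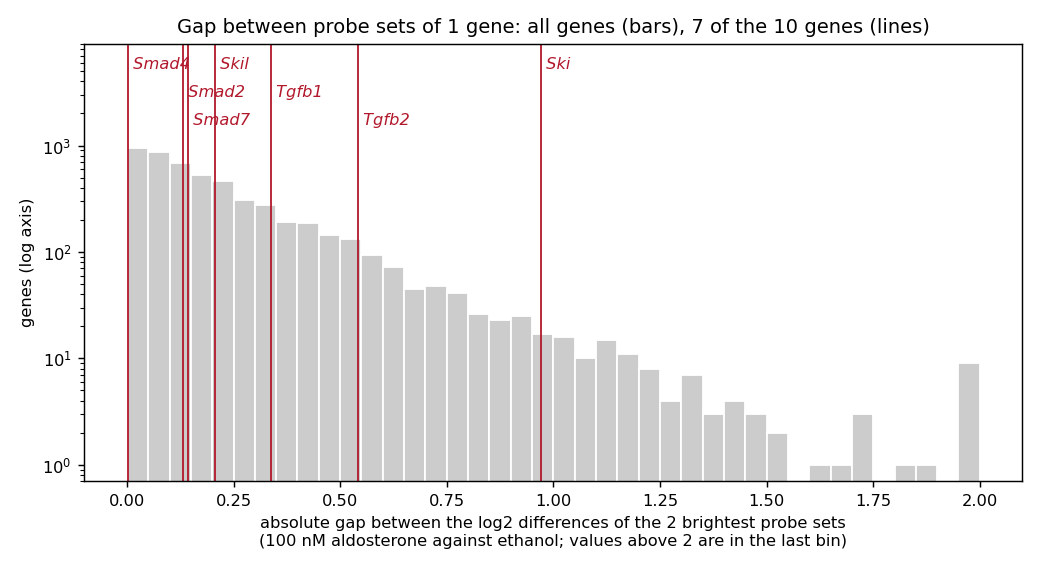
Absolute gap between the log2 differences of the 2 brightest probe sets of a gene for 100 nM aldosterone against ethanol, as a histogram over 5218 genes (log count axis), with lines for the 7 genes described here that have 2 such probe sets. Ski lies at 0.97, Tgfb2 at 0.54 and Smad4 at 0.00, where the median gene lies at 0.16.

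The genes above the 75th percentile with profiles most like the leading Ski probe set were found by the Euclidean distance of centred log2 signals over the 4 libraries. The nearest of 6936 was the deadenylase subunit gene Pan3, at a distance of 0.10, with signals of 1026, 1192, 2125 and 1143 in ethanol, 1 nM, 100 nM and spironolactone. By leading probe sets, Pan3 and Ski, the latter selected on such differences, were also the only 2 genes of that class whose 100 nM library stood at least 1.5-fold above every other library. The Pan3 probe set bears the same ending in x as the second of Smad7, and the next probe set of Pan3 differed by -0.19 for 100 nM against ethanol, where the leading one differed by 1.05. After it came the mitochondrial ribosomal gene Mrpl33 (0.36), the steroid-induced Tsc22d3 (0.43), Zfp428 (0.45) and AA414768 (0.45).

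The rest of the pathway was described from lists chosen with earlier results of these data known. Of 14 other ligands, latency proteins and ligand antagonists that entered, 1 was higher by 1.5-fold with 100 nM aldosterone than in ethanol (Bmp7) and 0 lower. Of all entered genes, 2.39% were higher and 1.72% lower by that much. The median of the 14 was -0.02. For 1 nM against ethanol 1 was higher by 1.5-fold (Bmp7) and 2 lower (Ltbp4 and Chrd). Of all entered genes, 2.61% were higher and 2.07% lower. Ltbp4 had 118.9 in ethanol, 72.35 with 1 nM and 118.5 with 100 nM. Chrd had 72.8, 39.2 and 61.3, the signal with 1 nM under the filter. For 100 nM against 1 nM both were higher, where 2.04% of entered genes were. These comparisons share the 1 nM library. Bmp7, a bone morphogenetic protein of the developing and adult kidney, had signals of 51.8, 129, 166 and 17.8 in ethanol, 1 nM, 100 nM and spironolactone. Its signals in ethanol and with spironolactone lay under the filter, so it entered through the libraries with aldosterone alone. The size of its difference is not measured. With the low signals raised to the filter signal, 100 nM aldosterone stood 2.98-fold above each of them. Of entered genes below the 75th percentile, 6.02% were higher by 1.5-fold with 100 nM than in ethanol. Tgfb3, the remaining TGF-beta form, had 121, 87.3, 90.2 and 85.8, highest in ethanol. The activin antagonist Fst, shown after its values were seen, had 338, 296, 431 and 312. It was highest with 100 nM and not past 1.5-fold in any comparison.

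Of 9 other receptors and co-receptors, 0 were past 1.5-fold between 100 nM aldosterone and ethanol, where 4.11% of entered genes were. The median of the 9 was -0.06. Tgfbr2, the type II partner of Tgfbr1, had signals of 5263, 5159, 4882 and 4983, a range of 0.11. The pseudoreceptor gene Bambi had a signal of 94.7 with 1 nM aldosterone, 50.04 in ethanol and 42.6 with 100 nM. The last 2 lay under the filter, so the size of the difference is not measured. With them raised to the filter signal, 1 nM stood 1.69-fold above each. Of entered genes below the 75th percentile, 6.48% were higher by 1.5-fold with 1 nM than in ethanol. Of 20 other Smads and Smad regulators that entered, 0 were past 1.5-fold in any of the 5 comparisons. Between 4.01% and 4.68% of all entered genes were, depending on the comparison. Smad1 had 2550, 2581, 2519 and 2566 and Smad5 had 1076, 981, 1136 and 1082, both of them Smads of the bone morphogenetic protein branch. Of 6 partners of Ski and Skil that entered, histone deacetylases among them, 0 were past 1.5-fold in any comparison, beside the same shares of all entered genes. For 100 nM against ethanol these partners lay between -0.17 and 0.06.

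Of 27 target genes that entered, which include the members Skil and Smad7, 2 were higher by 1.5-fold with 100 nM aldosterone than in ethanol and 0 lower. Of all entered genes, 2.39% were higher and 1.72% lower by that much. The 2 were Ccn2, a matrix-associated growth factor, and the dim Acta2, smooth muscle actin. Below the 75th percentile, where Acta2 lies, 6.02% of entered genes were higher by that much, and above it, where Ccn2 lies, 0.231%. Ccn2 had 3342, 2887, 5602 and 4835 in ethanol, 1 nM, 100 nM and spironolactone, and was high in both libraries that received 100 nM aldosterone. Acta2 had 62.0, 102, 109 and 77.0, with ethanol the lowest and close to the filter. Tagln, another smooth muscle gene, shown after its values were seen, had 134, 189, 198 and 173. It was not past 1.5-fold for 100 nM against ethanol. In that comparison 11 of the 27 lay above 0 and 16 below. The list's median was -0.02, and the lowest of the remaining 25 stood at -0.39. Id1, an early target of the bone morphogenetic protein branch, had 1135, 1197, 1159 and 1196. Fibronectin Fn1 had 5183, 5133, 4597 and 5456 by its leading probe set, lowest with 100 nM (-0.17 against ethanol). Its second, far dimmer, had 252, 149.7, 146 and 190.1, with ethanol the highest, and stood at -0.79 for the same comparison. For 100 nM against 1 nM, 20 of the 27 lay below 0, with the lowest at -0.43. Their median was -0.09, against 0.0047 for all entered genes, and -0.03 with the median over probe sets. The other Smads and Smad regulators leaned the same way, with 16 of 20 below 0. Their median was -0.08, and -0.11 with the median over probe sets. Of the other receptors, 7 of 9 lay below 0, while the other ligands had 7 of 14 and the Ski and Skil partners 3 of 6. The share of all entered genes below 0 was not counted, so these counts are a description. With spironolactone against 100 nM alone, 0 of the 27 were past 1.5-fold, where 4.33% of entered genes were.

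**Figure D4:**
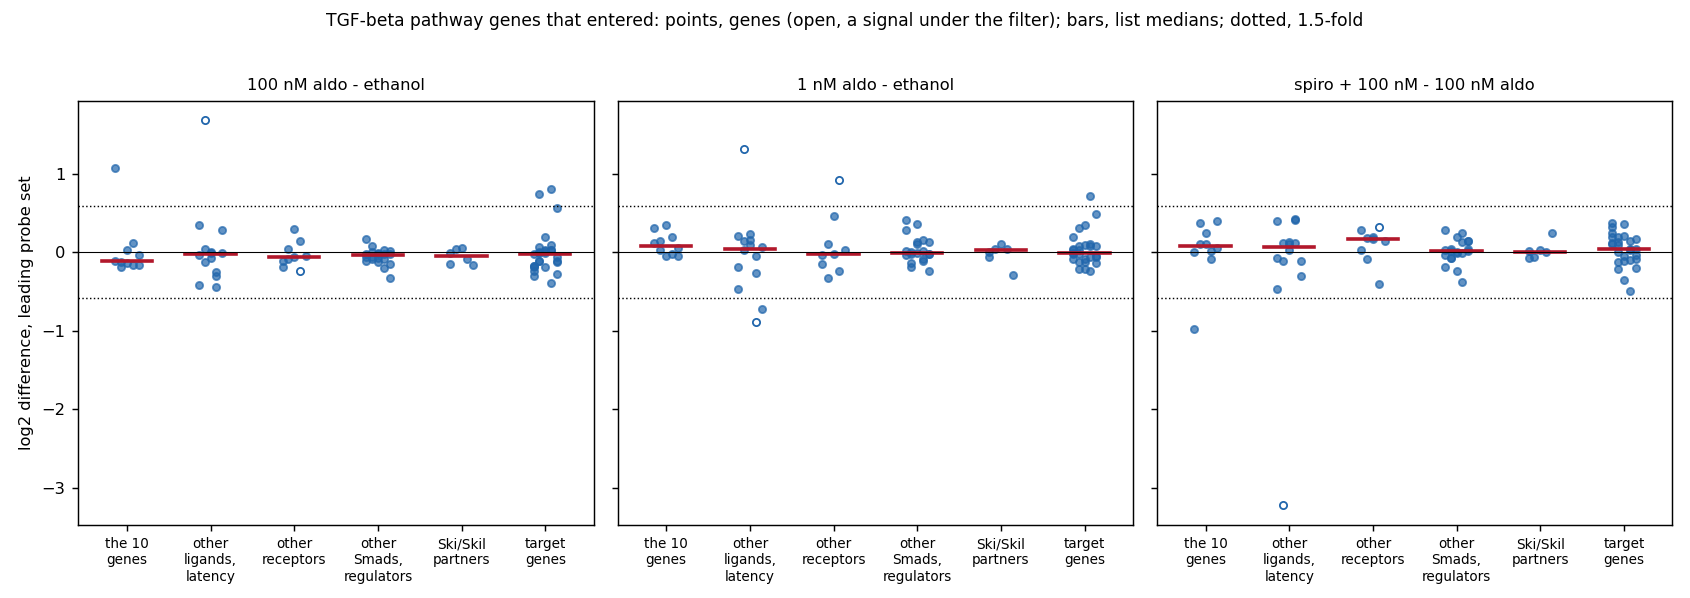
Log2 differences of leading probe sets (vertical axis) for the genes of each pathway list that entered, in 3 comparisons, with 1 point per gene (open where the signal of either library lay under the filter, so that the size of the difference is not measured), a red bar at each list's median and dotted lines at 1.5-fold. Most points lie between the dotted lines; those outside include Ski at 1.07 and -0.98 and, as open points, the dim Bmp7, which lay under the filter in ethanol and with spironolactone.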

How the data were processed

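One array per treatment was analysed. The authors deposited 1 intensity per probe set, on a linear scale. These came from MAS5, of unknown version here, per the submitters' processing notes. The mean signal without the outer 2% at each end was 500.0 in all 4 arrays, a common scale, so no further scaling was applied. Of 45101 probe sets, 64 were array controls; 34945 others had 1 gene symbol, 932 several, and 9160 were not listed in the annotation. By Entrez identifier 34741 matched RefSeq genes (GRCm38.p6), which changed 0 symbols. Differences are of log2 signal, with no pseudocount. A gene entered where its leading probe set passed the filter. The members and lists were chosen with earlier results of these data known. Named genes are all members, at most 4 per list and comparison past 1.5-fold, a few pathway genes fixed by name, others shown beside them after their values were seen, and the 5 nearest to Ski. Alternatives were the probe set, normalization, filter, pseudocount, floor and fold. The counting was tested on simulated data. Python 3.11.15, numpy 2.4.6 and pandas 2.3.3 were used.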

Additional observations from a re-analysis of the deposited data

How the results depend on the processing

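Counts of the 10 genes past 1.5-fold depended on the probe set more than on scaling. With the second brightest probe set, which 7 genes had at or above the filter, the count for 100 nM aldosterone against ethanol went from 1 to 0, for 1 nM against ethanol from 0 to 1 (Smad7, lower), for spironolactone against 100 nM alone from 1 to 0, and for spironolactone against ethanol from 0 to 1 (Tgfb2, higher). For 100 nM against 1 nM it stayed at 1, but the gene was Smad7 and not Ski. With the median over probe sets the count was 0 for 100 nM against 1 nM and 0 for spironolactone against 100 nM alone, and Ski stood at 0.59 for 100 nM against ethanol. Counting from a log2 difference of 0.32 gave 1 for 1 nM against ethanol, 3 between the doses and 3 for spironolactone against 100 nM alone; counting from 2-fold gave 0 for both of the last. Quantile normalization, median centring, no filter, the filter at the 75th percentile (which 7 genes pass), a pseudocount of 50 and a floor at the filter signal changed none of these counts. Of 50 single differences, 49 kept their sign under quantile normalization and 47 under median centring, and of 35 with a second probe set 18 kept it there. No paired analysis was possible because each treatment has 1 array, and for the same reason no library could be left out of a group.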

Other observations

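The 5 member probe sets below the filter differed more between libraries than the brighter ones. The second of Smad3 had signals of 71.7, 40.0, 43.8 and 18.8 in ethanol, 1 nM aldosterone, 100 nM aldosterone and spironolactone, and the third 7.48, 12.9, 25.6 and 31.6. Ethanol was the highest and spironolactone the lowest in the former, and the reverse held in the latter. Those of Tgfbr1 lay between 9.42 and 35.0 and that of Inhba between 4.08 and 11.6. No fold is given for them.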
